A study of Mus musculus with 24 samples.

Results

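RNA-seq of the lower small intestine (LSI) compared epithelium of 24-month-old mice, 2 libraries named A and B, with that of 4-month-old mice, 3 libraries named A, B and C. These 5 of the 24 libraries of the series were taken by their section and age labels, and 3 LSI libraries of 12 months are given beside them. All mice carried the Lgr5-EGFP-IRES-CreERT2 allele, in which the Lgr5 locus, a marker of crypt base stem cells, drives a green fluorescent protein and an inducible recombinase. No group was treated. Cells came from the lower part of a small intestine that had been cut into an upper (USI) and a lower portion, were pooled, and were not sorted by fluorescence for RNA. How many mice went into an RNA pool is not given in the sources used here. Unless a fit to fewer libraries is named, every p-value rests on the spread within groups of section and age, estimated over all 24 libraries. That spread may be technical in part. The LSI B libraries of 4 and 24 months, however, differed from the others of their age in Y-linked counts and so did not hold the same mice alone. The study asked whether age changes the expression of intestinal genes.

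The lower small intestine renews its epithelium from Lgr5-positive stem cells at the crypt base, next to Paneth cells that release antimicrobial peptides. Its enterocytes take up bile acids, so that cholesterol turnover is closely tied to this section, and lymphoid tissue lies beneath it in Peyer's patches. A change in a level in such bulk RNA can come from fewer cells of a type or from less RNA per cell, and these cannot be told apart.

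The labelled tissue matched its markers. Epcam, an epithelial adhesion protein, had 1530 to 2020 CPM (counts scaled to a common normalized library total) in the 5 libraries. Fabp6, the ileal bile acid binding protein, had 513 to 1130 CPM, against at most 2.01 CPM in any USI library. Total counts lay between 35930355 and 36574501. Some features of the libraries moved with age or set a library apart. Insulin transcripts (Ins1 and Ins2), which intestinal epithelium should lack, had 778 and 890 counts in the 24-month A and B libraries and 0 in all 3 of 4 months, where a count of 0 allows up to 3. They also had 2808 counts in the 12-month C library, and 11 of the 24 libraries held at least 50. Genes of the Y chromosome had 3440 counts in the 24-month B library and 4915 in the 4-month B library, and no more than 2 in the other 3. The USI and colon libraries with the letter B of these ages also held Y-linked counts (5749 to 7301), and those with the letters A and C held at most 12. In the deposited file of the 4-month C library the sample code is 4LC-1, and the colon 4-month B library carries the code 4LC-2. The labels were followed. Fabp6 had 1080 CPM and Gata4, a transcription factor of the upper gut, 120 CPM in 4-month C, against at most 113 and 3.74 CPM in any colon library. The 4-month C library differed from A and B of its age in clock genes, in the enterocyte gene Fabp2 (5600 CPM, against 1520 and 268) and in summed T cell markers (430 CPM, against 137 and 70.6).

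Of 17491 genes that passed edgeR's filter on low counts, 14 differed between 24 and 4 months at an adjusted p under 0.05 (edgeR quasi-likelihood test, Benjamini-Hochberg adjustment), which is 0.0800% of the genes tested. In 9 of them (0.0515%) the level was higher at 24 months and in 5 (0.0286%) it was lower. The libraries of the ages did not overlap in any of the 14. Over all genes, 8.06% had both 24-month libraries above all 3 of 4 months, and 10.3% had both below. At an unadjusted p under 0.05 there were 1875 genes, of which 783 were higher and 1092 lower. The count depended on the libraries in the fit: it ranged from 4 without the 24-month B library to 36 without the 4-month B library, with 25 without 24-month A, 8 without 4-month A and 9 without 4-month C. In a fit to the 8 LSI libraries alone it was 3 (Rps4y2, Ddr2 and Serpinb5).

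Rps4y2, a gene on chromosome 6 that codes for a form of the small ribosomal subunit protein S4, had the strongest statistical evidence. At 4 months its level was 25.8, 25.3 and 22.3 CPM (A, B, C), and at 24 months it was 1.05 and 1.86 CPM (A, B). The young libraries lay close together and far above the old ones, and the 12-month libraries stood between them at 8.31, 5.86 and 8.51 CPM. The log2 fold change was -4.07 ± 0.25 (SE, n = 2 and 3, adjusted p = 7.28e-08), and it passed in all 18 other fits tried. The gene lies at chr6:148303178-148304120 on the plus strand of mm9. Rps4x, the X-linked gene for the same protein, had 267 to 397 CPM in these libraries, with a log2 fold change of 0.15 ± 0.16 (adjusted p = 0.803).

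Because Rps4x is far more abundant, the coding sequences of both genes are shown where they differ most. Over 788 aligned positions of the reference annotation (GENCODE M1, mm9) they were 80.5% identical, and the longest identical run was 35 bases. The stretch below spans coding bases 484 to 603 of each, 5′ to 3′, and capitals mark the 35 positions at which they differ.
Rps4y2: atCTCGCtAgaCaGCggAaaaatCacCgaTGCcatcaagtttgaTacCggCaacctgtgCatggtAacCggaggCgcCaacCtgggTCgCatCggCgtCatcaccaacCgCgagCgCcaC
Rps4x: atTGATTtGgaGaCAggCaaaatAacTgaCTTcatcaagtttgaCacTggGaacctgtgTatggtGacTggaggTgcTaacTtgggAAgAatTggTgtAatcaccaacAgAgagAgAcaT

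Ddr2, a receptor tyrosine kinase that binds fibrillar collagen and is typical of mesenchymal cells, was higher at 24 months. It had 5, 6 and 2 counts in the 4-month libraries and 104 and 84 counts in the 24-month libraries, that is 0.138, 0.159 and 0.0601 CPM against 2.88 and 2.44 CPM. At 12 months the level was again in between, at 1.44, 1.5 and 1.09 CPM. On the log2 scale the change was 4.42 ± 0.49 (SE, adjusted p = 2.70e-04). Only the fit to the 5 libraries of these ages by themselves took it past the threshold, to an adjusted p of 0.111. Col1a1, Lum and Pdgfra, 3 of the listed fibroblast genes, were low in every library. Col1a1 had 0.138 to 1.19 CPM, Lum 0.053 to 0.443 CPM, and Pdgfra at most 0.290 CPM and 0 in the 4-month B library. Of 11 measured fibroblast genes, Ddr2 alone passed the test, 5 did not overlap upward, where 8.06% of all genes did, and 0 downward. Their median log2 fold change was 0.80, against -0.032 over all genes. Without 24-month B the median was 1.22, with 9 genes upward, against 15.1% of all genes. It was 0.21 without 24-month A, 0.49 without 4-month B and 0.18 with a term for libraries with insulin counts in the fit. Both 24-month LSI libraries held insulin counts and no 4-month LSI library did. That term was thus estimated from other groups of section and age, and it cannot separate insulin from age here. The summed level of the 11 fibroblast genes, most of it from members other than those 3, was 79.5 to 215 CPM at 4 months. At 24 months it was 108 and 99.6 CPM (A, B).

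Car1, a cytosolic carbonic anhydrase that is abundant in colon epithelium, was higher in both old libraries. Its level was 1.10, 2.17 and 3.30 CPM at 4 months, 23.5, 16.6 and 84.7 CPM at 12 months, and 92.7 and 214 CPM at 24 months. The 12-month C library, which held insulin counts, was the highest of its age. The 24-month mean was 69.9 times the 4-month mean, and the log2 change was 6.13 ± 0.77 (SE, adjusted p = 0.0013). Without both B libraries the adjusted p was 0.112. The colon libraries held 4470 to 8300 CPM, so that the 24-month libraries reached 1.41% and 3.26% of the colon mean. In USI the log2 fold change of Car1 with age was 0.87 (adjusted p = 0.632) and in the colon -0.03 (adjusted p = 1).

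Other genes of the colon list gave smaller levels. Of 16 measured colon genes, Car1 passed, 6 did not overlap upward and 1 downward, against 8.06% and 10.3% of all genes. The median log2 fold change was 0.32. That median was 0 without 24-month B, 0.18 without 4-month B and with an offset for gene length, 0.76 without 24-month A, 0.8 without 4-month C and 0.75 with the insulin term. Aqp8, a water channel of colonocytes, had 4, 2 and 0 counts at 4 months and 30 and 88 counts at 24 months (adjusted p = 0.107). Hoxa13, a homeobox gene of the distal gut, had 0 counts in each 4-month library and 2 and 8 at 24 months (adjusted p = 0.344). Hoxb13 reached at most 0.406 CPM in these libraries and the other distal homeobox genes on the list, Hoxd10, Hoxd12 and Hoxd13, were at 0. The part of RNA from colon cells in the Car1 result was not tested.

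**Figure D1:**
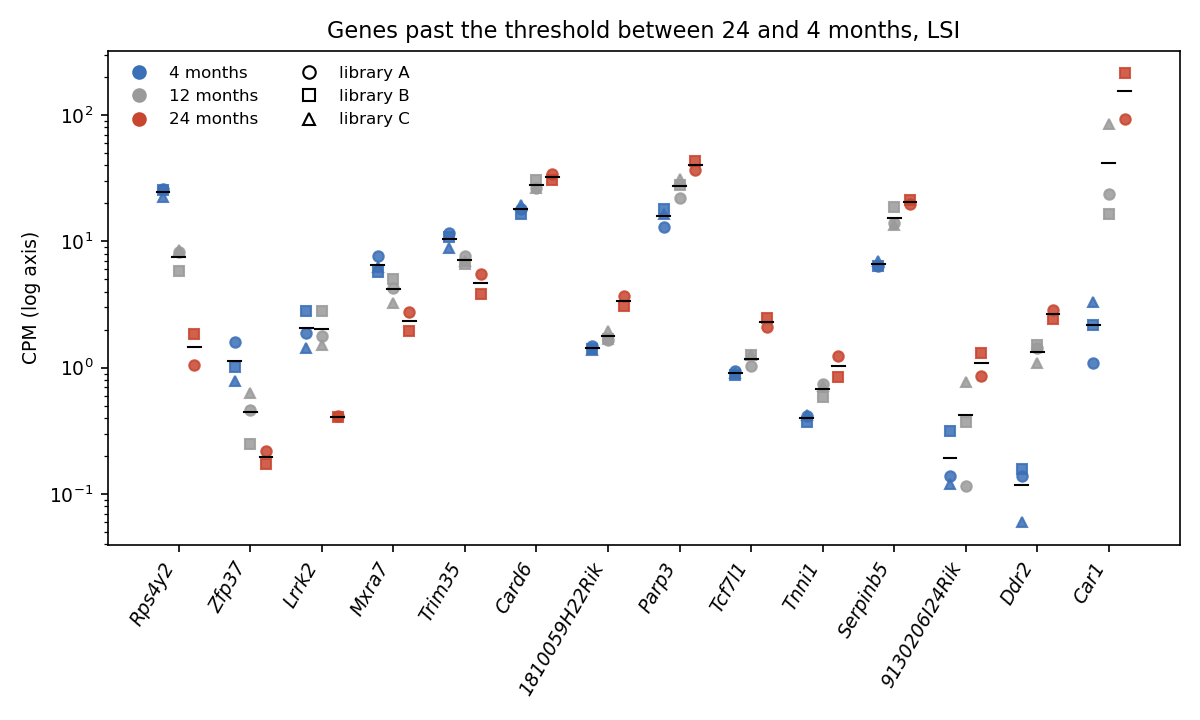
CPM on a log axis for the 14 genes past the threshold, ordered by log2 fold change, in every LSI library of 4, 12 and 24 months. Points are libraries, with a shape for each letter, and short lines are group means. The 24-month points lie wholly above or below the 4-month points in all 14 genes.

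Serpinb5, the epithelial serpin maspin, rose from 6.4, 6.41 and 6.97 CPM to 19.7 and 21.2 CPM (log2 fold change 1.63 ± 0.24, SE, adjusted p = 0.00629). Parp3, an ADP-ribosyltransferase that acts at DNA breaks, rose from 13.1, 18.1 and 16.6 CPM to 36.8 and 43.4 CPM (1.33 ± 0.19, adjusted p = 0.00629). Card6, a caspase recruitment domain protein, rose from 18.1, 16.6 and 19.4 CPM to 34.1 and 30.6 CPM (0.84 ± 0.13, adjusted p = 0.00858). The levels of the young libraries of Serpinb5 differed by less than 1 CPM, and its old libraries were about 3 times as high. Without the 24-month B library, the adjusted p became 0.127 for Serpinb5, 0.221 for Parp3 and 0.0646 for Card6, and without the 24-month A library it became 0.0533 for Card6.

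Tcf7l1, a TCF family factor that represses Wnt target genes, was at 0.875 to 0.939 CPM in young and 2.10 and 2.47 CPM in old libraries (log2 fold change 1.33 ± 0.22, adjusted p = 0.0211). Tnni1, the slow skeletal form of troponin I, was low throughout and went from 0.371 to 0.421 CPM up to 1.24 and 0.842 CPM (adjusted p = 0.0227). The lincRNA 9130206I24Rik had 0.138, 0.318 and 0.12 CPM in young and 0.857 and 1.31 CPM in old libraries (adjusted p = 0.0397), and the processed transcript 1810059H22Rik had 1.38 to 1.49 CPM and then 3.68 and 3.08 CPM (adjusted p = 0.0397). Both are known only by their clone names, and the counting used no strand, so reads of an overlapping gene could not be kept apart.

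Besides Rps4y2, 4 genes were lower at 24 months. Trim35, a RING-type ubiquitin ligase, fell from 11.6, 10.8 and 8.92 CPM to 5.56 and 3.83 CPM (log2 fold change -1.15 ± 0.19, SE, adjusted p = 0.0211). Mxra7, a matrix remodelling associated protein, fell from 7.70, 5.67 and 6.22 CPM to 2.74 and 1.97 CPM (-1.47 ± 0.26, adjusted p = 0.0281). Zfp37, a zinc finger protein, fell from 1.60, 1.01 and 0.781 CPM to 0.221 and 0.174 CPM (-2.49 ± 0.41, adjusted p = 0.0211). Lrrk2, a kinase expressed in immune and Paneth cells, fell from 1.90, 2.81 and 1.44 CPM to 0.415 and 0.406 CPM (-2.31 ± 0.42, adjusted p = 0.0397). All 4 lost their call without the 24-month B library, with adjusted p of 0.611 to 0.713.

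Leaving out other libraries also ended calls among these genes. Without 24-month A the adjusted p was 0.0574 for Zfp37, 0.0501 for Mxra7, 0.0757 for Lrrk2, 0.11 for Tnni1 and 0.0805 for 1810059H22Rik. Without 4-month A it was 0.0834 for Trim35, Tnni1 and Lrrk2, 0.0746 for Zfp37, 0.0766 for Tcf7l1, 0.124 for Mxra7, 0.136 for 1810059H22Rik and 0.173 for 9130206I24Rik. Without 4-month B it was 0.0564 for Tnni1, 0.0652 for Lrrk2 and 0.0571 for 1810059H22Rik, and without 4-month C it was 0.0824 for Tcf7l1 and Tnni1, 0.0731 for Mxra7 and 0.217 for both clone-named transcripts. The 24-month B library also carried the calls of Tcf7l1 (0.57 without it), 1810059H22Rik (0.261) and 9130206I24Rik (0.713). With the insulin term, 3 genes kept their call: Rps4y2, Ddr2 and Car1. Between these ages of LSI the term coincides with age, so other groups set its size. A call lost with it does not separate insulin from age.

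The 12-month mean lay between the other means in all 14 genes, which were called for the gap between those means. Over all genes it did so in 32.3%. In USI, 5 of the 14 also passed the test between 24 and 4 months (Rps4y2, Ddr2, Parp3, Card6 and 9130206I24Rik), where 0.263% of all genes did, and in the colon 2 passed (Rps4y2 and Ddr2), where 0.149% of all genes did. Libraries with the same letter and age shared their Y-linked pattern in all 3 sections. At 4 and 24 months their deviations from the group means correlated at 0.23 to 0.88 between LSI and USI. Between LSI and the colon they correlated at 0.11 to 0.5, and 4-month A correlated more (0.26) with a colon library of another letter. The values of those sections thus cannot be taken as independent of LSI, although the fit treats all libraries as independent. The direction was that of LSI in 13 of the 14 genes in USI, with Tcf7l1 at -0.11 on the log2 scale as the exception, and in 12 of the 14 in the colon.

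Ccr2 and Cstf2t, which changed with age in the other sections, did not pass in LSI. Ccr2, a chemokine receptor of monocytes, had 0.607, 0.371 and 0.240 CPM at 4 months and 0.498 and 0.522 CPM at 24 months (log2 fold change 0.32 ± 0.48, adjusted p = 0.88), whereas it was 3.03 in USI (adjusted p = 0.00811) and 2.44 in the colon (adjusted p = 0.0432). Cstf2t, a cleavage stimulation factor of mRNA 3′ end formation, was at 39.3 to 42.6 CPM and at 32.0 and 36.3 CPM (-0.27 ± 0.09, adjusted p = 0.307), against -0.82 in USI (adjusted p = 4.85e-04). The difference of the age effect between LSI and USI was -2.71 ± 0.68 for Ccr2 and 0.55 ± 0.13 for Cstf2t, with an adjusted p of 0.978 for each. No gene passed for the difference between LSI and USI (0% of 17491, 558 at an unadjusted p under 0.05), while the likelihood ratio test of edgeR called 4 and DESeq2 called 4. For LSI and the colon, 2 genes (0.0114%) passed. With age and letter as a replicate block across sections, 1 gene (Car1) passed for USI and 11 for the colon. The log2 difference of the age effect of Car1 was then 5.29 ± 0.69 against USI (adjusted p = 0.0383, and 0.785 without the block) and 6.08 ± 0.65 against the colon (adjusted p = 0.00161, and 0.0507 without it).

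Most genes of the cholesterol pathway were higher in both old libraries than in any young one, although none passed the test over all genes. Cholesterol is made from acetyl-CoA through mevalonate and squalene, and SREBP2 switches on these enzymes when sterols run low. Of 21 measured members, 14 had both 24-month libraries above all 3 of 4 months, 0 had both below, and 15 had an unadjusted p under 0.05. Their median log2 fold change was 0.32. Over all genes 8.06% did not overlap upward.

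The members ran along the pathway. Mvd, which makes isopentenyl diphosphate, had 24.8, 33.3 and 25.4 CPM at 4 months and 42.0 and 46.6 CPM at 24 months (log2 fold change 0.67 ± 0.17, adjusted p = 0.167). Fdft1, squalene synthase, had 85.6, 92.3 and 89.7 CPM and then 117 and 133 CPM (0.49 ± 0.12, adjusted p = 0.176). Cyp51, lanosterol demethylase, had 124, 149 and 129 CPM and then 183 and 181 CPM (0.44 ± 0.14, adjusted p = 0.268). Every 24-month value of these 3 genes lay above every 4-month value.

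Sqle, squalene epoxidase, had 102, 132 and 130 CPM at 4 months and 164 and 181 CPM at 24 months (0.51 ± 0.13, adjusted p = 0.2). Nsdhl, a sterol 4-demethylase subunit, had 55.0, 65.3 and 55.8 CPM and then 79.4 and 90.9 CPM (0.54 ± 0.11, adjusted p = 0.0804). Dhcr7, which makes cholesterol from its last precursor, had 105, 96.1 and 87.8 CPM and then 114 and 119 CPM (0.27 ± 0.09, adjusted p = 0.282). Here too the old libraries lay above the young ones, by the smallest margin in Dhcr7. Members whose ages overlapped included Srebf2 itself, at 229 to 264 CPM in young and 248 and 263 CPM in old libraries, and Idi1, Stard4, Sc5d, Mvk and Hsd17b7. With the gene length offset the count without overlap was again 14, where 6.37% of all genes did not overlap upward. It was 13 to 17 under the other scalings and with any 1 library left out, where the share of all genes ran from 7.84% to 22.3%, and 17 without both B libraries, where it was 30.7%. Members with an unadjusted p under 0.05 numbered 7 without 24-month B, 10 without 4-month A and 9 without both B libraries. With the insulin term the median was 0.34 and 10 members had an unadjusted p under 0.05.

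The age effect on these genes had lower values in the colon, where the log2 fold change of Nsdhl was -0.16 and of Sqle -0.21, and the difference from LSI did not pass (adjusted p = 0.29 and 0.45, and 0.11 and 0.149 with the block across sections). For Mvd the difference from the colon was 0.91 ± 0.24 (adjusted p = 0.422), and it passed with that block (0.92 ± 0.14, adjusted p = 0.0313). In USI the values were 0.35 and 0.36. Scd1, a fatty acid desaturase that is also an SREBP target, was chosen after its values were seen. It had 23.3, 21.7 and 23.9 CPM at 4 months and 7.47 and 11.2 CPM at 24 months (-1.30 ± 0.27, adjusted p = 0.0804), and the 12-month C library had 11.6 CPM, against 20.3 and 19.8 CPM in its A and B.

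Promoters of the cholesterol genes were searched because the members stood apart together. RefSeq promoters of GRCm38.p6, which run from 250 bases before to 50 after each start, were found for 14 of the 22 listed genes. The sterol element TCACNCCAC, on either strand, occurred in 1 of their 17 promoters and in 1.24% of all 32851 promoters. That 1 promoter was of Hmgcs1, which was not among the 21 measured members. The box CCAATC of the factor NF-Y, a partner of SREBP, occurred in 12 of the 17 promoters, or 70.6%, against 16.1% of all promoters. It also occurred in 63.6% of the 22 promoters of the clock list. The cholesterol genes with the box included Hmgcs1 and also Idi1, Mvk, Sc5d, Srebf2 and Hsd17b7, whose ages overlapped. The stretches below, 5′ to 3′, hold the box in capitals in 3 members without overlap, in either orientation. They lie at chr5:4104676-4104771 (minus strand, Cyp51), chr7:143830084-143830214 (plus strand, Dhcr7) and chr8:122443399-122443494 (minus strand, Mvd).
Cyp51: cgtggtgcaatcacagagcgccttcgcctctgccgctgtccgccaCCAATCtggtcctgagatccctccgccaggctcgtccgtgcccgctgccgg
Dhcr7: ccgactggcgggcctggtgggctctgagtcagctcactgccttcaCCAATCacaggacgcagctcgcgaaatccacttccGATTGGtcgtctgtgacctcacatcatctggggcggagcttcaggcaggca
Mvd: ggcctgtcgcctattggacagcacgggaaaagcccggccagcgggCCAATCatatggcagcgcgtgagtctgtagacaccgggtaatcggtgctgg

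B cell genes lay lower in the old libraries. They mark the lymphocytes of Peyer's patches and lymphoid follicles, which lie beneath the epithelium. No member passed the test. Of 9 measured genes, 7 had both 24-month libraries below all 3 of 4 months, where 10.3% of all genes did, and the median log2 fold change was -1.33. Cd79a, a subunit of the B cell receptor, had 12.0, 18.1 and 13.7 CPM at 4 months and 3.93 and 6.97 CPM at 24 months (-1.42 ± 0.52, adjusted p = 0.327). Ms4a1, which codes for CD20, had 8.09, 11.8 and 7.09 CPM and then 3.15 and 3.05 CPM (-1.54 ± 0.46, adjusted p = 0.235). Pou2af1, a coactivator of B cells, had 8.28, 8.59 and 7.33 CPM and then 2.60 and 2.90 CPM (-1.55 ± 0.43, adjusted p = 0.219). The old libraries were each below the lowest young library in these genes, as was the plasma cell gene Igj in the 24-month A library only (7.69 CPM, against 8.14 to 21.5 CPM).

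The summed level of the 9 genes was 57.5 to 92.2 CPM at 4 months and 25.8 and 35.6 CPM at 24 months. At 12 months it was 64.0 and 77.1 CPM in the A and B libraries, and 38.3 CPM in the C library, which like the 24-month libraries held insulin counts. With the insulin term the median of the list was -0.70, and 1 member had an unadjusted p under 0.05, against 6 without it. The part of whatever brought insulin transcripts into these libraries in the B cell values was not tested. Of 13 genes of the mitochondrial genome, 6 did not overlap downward, where 10.3% of all genes did. None of the 6 was above 32.4 CPM. Upward, 3 of the abundant ones (mt-Nd1, mt-Nd2 and mt-Nd4) did not overlap, where 8.06% of all genes did. The median of the list was 0.04. Its summed level was 118000 to 130000 CPM at 4 months and 129000 and 144000 CPM at 24 months. Among the 6, mt-Atp6, a subunit of ATP synthase, had 27.3 to 32.4 CPM at 4 months, 12.0 and 11.7 CPM at 24 months, and 29.5, 31.0 and 10.3 CPM in the 12-month A, B and C libraries. In MHC class II presentation, 3 of 11 genes did not overlap downward, against 10.3% of all genes. The 3 were H2-Oa, H2-Ob and H2-DMb2, which are typical of B cells. H2-Aa, a chain of the molecule itself, had 349 to 920 CPM in young and 555 and 874 CPM in old libraries.

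**Figure D2:**
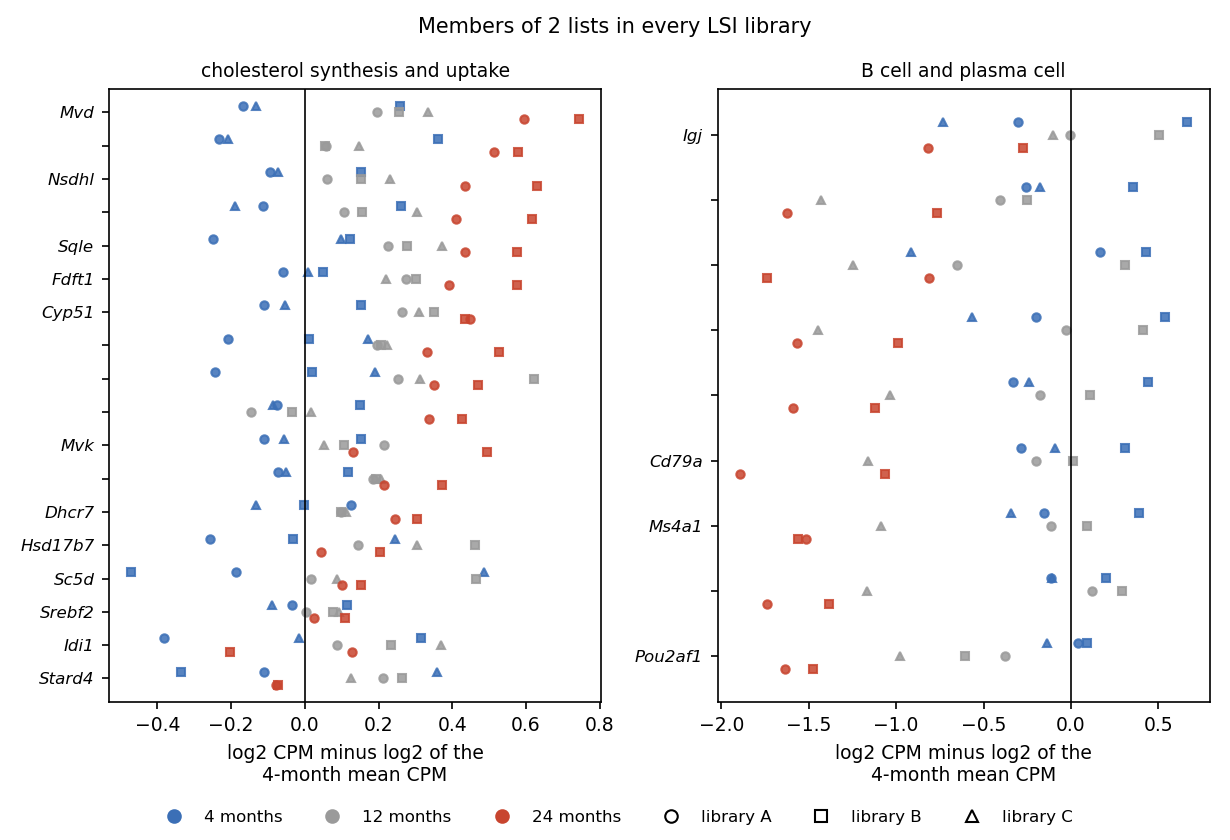
Log2 CPM minus the log2 of the 4-month mean CPM for 18 cholesterol genes (left) and 9 B and plasma cell genes (right) in every LSI library, each point a library and each row a gene, with the genes named in the text labelled. In 12 of these cholesterol genes both 24-month points lie right of all 4-month points, and in 7 B cell genes both lie left of them, with the 12-month C triangle near the 24-month points on the right panel.

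Energy metabolism genes lay slightly higher in the old libraries, with none past the test. Of 19 nuclear genes of oxidative phosphorylation, 15 did not overlap upward, where 8.06% of all genes did. Their median log2 fold change was 0.26. Cox5a, a subunit of cytochrome c oxidase, had 153, 157 and 145 CPM at 4 months and 185 and 223 CPM at 24 months (0.43 ± 0.11, adjusted p = 0.192). Of 14 glycolysis genes, 9 did not overlap upward, again against 8.06% of all genes, and the median was 0.29. Pgk1, phosphoglycerate kinase, had 32.5, 40.0 and 30.8 CPM and then 41.2 and 51.5 CPM (0.43 ± 0.11, adjusted p = 0.213). Without the 24-month B library the oxidative median was 0.13 and 1 member had an unadjusted p under 0.05, against 15 with it.

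The age effect in LSI followed the length of the transcript, and the median exonic length of the oxidative phosphorylation list was 2239 bases. Among genes with a mean of at least 4 CPM, the median log2 fold change was 0.158 in the 735 with at most 1000 exonic bases and -0.154 in the 1142 with more than 8000. In the shortest class 19.3% of genes did not overlap upward, and in the longest 2.28%. The class that holds the median length of the oxidative phosphorylation list, over 2000 and up to 4000 bases, had a median of 0.02. In that class 8.28% of genes did not overlap upward. The medians of the shortest and longest classes were 0.014 and -0.086 in USI and 0.039 and -0.035 in the colon. With an offset that removes each library's length trend, 9 of the 19 oxidative phosphorylation genes and 7 of the 14 glycolysis genes did not overlap upward, where 6.37% of all genes did. In the same fit, 11 genes were called, and Tnni1 (adjusted p = 0.0545), Lrrk2 (0.0737) and 1810059H22Rik (0.0545) were not.

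**Figure D3:**
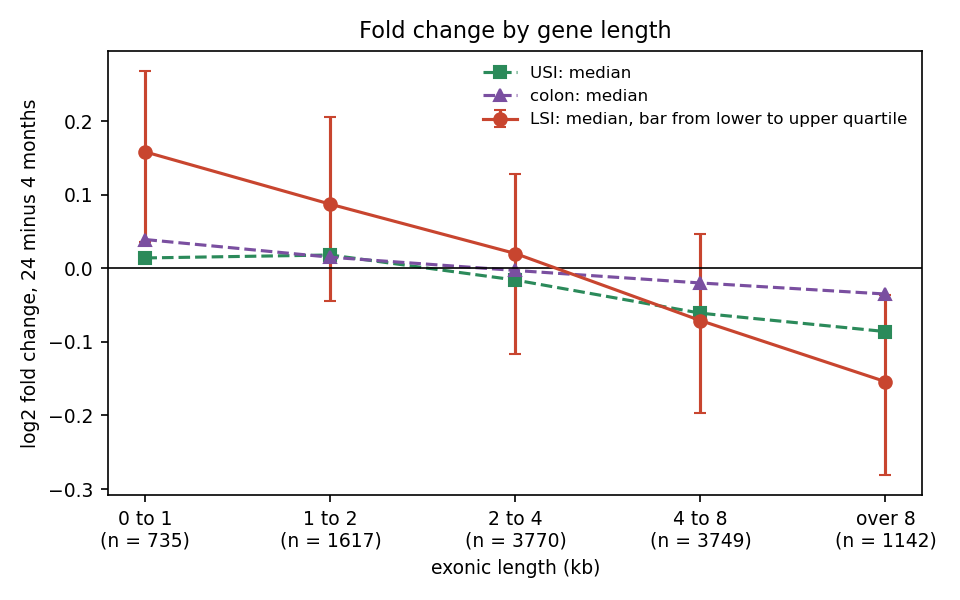
Median log2 fold change between 24 and 4 months by exonic length in kb, for genes with a mean of at least 4 CPM in the 5 LSI libraries. The bars run from the lower to the upper quartile of LSI. The LSI medians run from 0.158 in the shortest class to -0.154 in the longest, a wider range than in USI or the colon.

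Antigen presentation through MHC class I had 5 of 15 genes without overlap upward, against 8.06% of all genes, and 0 downward. The median log2 fold change was 0.48. Psmb8, an immunoproteasome subunit, had 39.7, 69.3 and 65.2 CPM at 4 months and 82.5 and 174 CPM at 24 months (1.14 ± 0.42, adjusted p = 0.33). Tap1, the peptide transporter, had 74.2, 100 and 128 CPM and then 126 and 286 CPM (1.03 ± 0.44, adjusted p = 0.412), so that the ages overlapped. The 24-month B library was more than 2 times as high as A in both genes. Without the 4-month C library 14 of 15 genes did not overlap upward, where 16.3% of all genes did, and without the 24-month B library the median was 0.20. With the gene length offset 2 did not overlap upward, where 6.37% of all genes did. Members with an unadjusted p under 0.05 numbered 7, and 0 with the insulin term (median 0.31) or without 24-month B. Of 39 interferon response genes, 3 did not overlap upward, where 8.06% of all genes did. Their median was 0.14. Without the 4-month C library 24 did not overlap upward, where 16.3% of all genes did, and the median was 0.57. It was -0.01 without 4-month B and -0.04 without 24-month B.

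Stem cell genes had a median log2 fold change of -0.25. Of 16 measured members, 3 did not overlap downward, where 10.3% of all genes did, and no member passed the test. Lgr5, the gene that carries the reporter allele, had 52.8, 45.6 and 35 CPM at 4 months and 34.6 and 24.9 CPM at 24 months (-0.58 ± 0.33, adjusted p = 0.569). Ascl2, a transcription factor of stem cells, had 18.3, 16.4 and 11.7 CPM and then 11.6 and 10.6 CPM (-0.48 ± 0.28, adjusted p = 0.586). Cdk6, a cell cycle kinase on the list, had 17.6, 16.5 and 13.4 CPM and then 11 and 7.05 CPM (-0.81 ± 0.24, adjusted p = 0.235). Slc12a2, a chloride cotransporter of crypt cells, had 546, 639 and 421 CPM and then 438 and 323 CPM (adjusted p = 0.466). The 4-month C library was the lowest young library in all 16 genes and close to the 24-month values for Lgr5 and Ascl2. Without it, 15 of the 16 genes did not overlap downward, where 19% of all genes did, and the median was -0.43, while none passed (adjusted p of Lgr5 0.52). Without 4-month B the median was -0.08, with 1 gene upward and 3 downward, against 19.2% and 20.8% of all genes. Without both B libraries the median was 0.04. With the insulin term it was -0.15 and 0 members had an unadjusted p under 0.05, against 2 without it. No gene of 22 for the cell cycle, of 16 for Paneth cells or of 21 for enterocytes was without overlap. Over all genes 8.06% did not overlap upward and 10.3% downward. The enterocyte and cell cycle counts depended on single young libraries. The enterocyte median was -0.40. Without 4-month B it was -0.83, with 11 genes downward, and 10 cell cycle genes lay upward. Without 4-month C it was 0.45, with 7 genes upward, against 16.3% of all genes, and 3 cell cycle genes lay downward.

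Clock genes set the 4-month C library apart. The circadian clock runs on activators such as Arntl and repressors such as Per1, and output genes such as Dbp follow the time of day. Dbp had 51.9 CPM in the 4-month C library and 2.51 and 0.636 CPM in A and B, against 1.41 and 1.02 CPM at 24 months (log2 fold change -3.91 ± 1.83, adjusted p = 0.454). Tef, a related output factor, had 108, 18.9 and 7.42 CPM in C, A and B and 15.0 and 14.8 CPM at 24 months. Per3, a period repressor, had 35.1, 6.38 and 3.92 CPM and then 4.62 and 2.84 CPM. Arntl ran the other way, with 18.3 CPM in C, 56.1 and 66.2 CPM in A and B, and 63.1 and 70.7 CPM at 24 months.

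Of 20 clock genes, 3 did not overlap upward and 2 downward, against 8.06% and 10.3% of all genes. The clock genes upward included Npas2 and Nfil3, and the 2 downward were Per1 and Bhlhe41. Npas2, a partner of Clock, had 50.6, 31.2 and 29.3 CPM and then 57.1 and 60.6 CPM (0.67 ± 0.25, adjusted p = 0.347). Bhlhe41, a repressor of the clock, had 0.331, 0.212 and 0.601 CPM and then 0.0553 and 0.058 CPM (-2.67 ± 0.79, adjusted p = 0.235). Without the 4-month C library the median of the list went from -0.58 to 0.13. The 12-month libraries resembled 4-month C, with Dbp at 27.4, 47.6 and 23.3 CPM. The time of day of collection is not given in the sources used here. Other clock genes were Per2, Nr1d1, Nr1d2, Hlf, Cry1, Cry2, Clock, Rora, Usp2, Bhlhe40 and Gm129, each overlapping between the ages, with adjusted p of 0.475 or more.

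**Figure D4:**
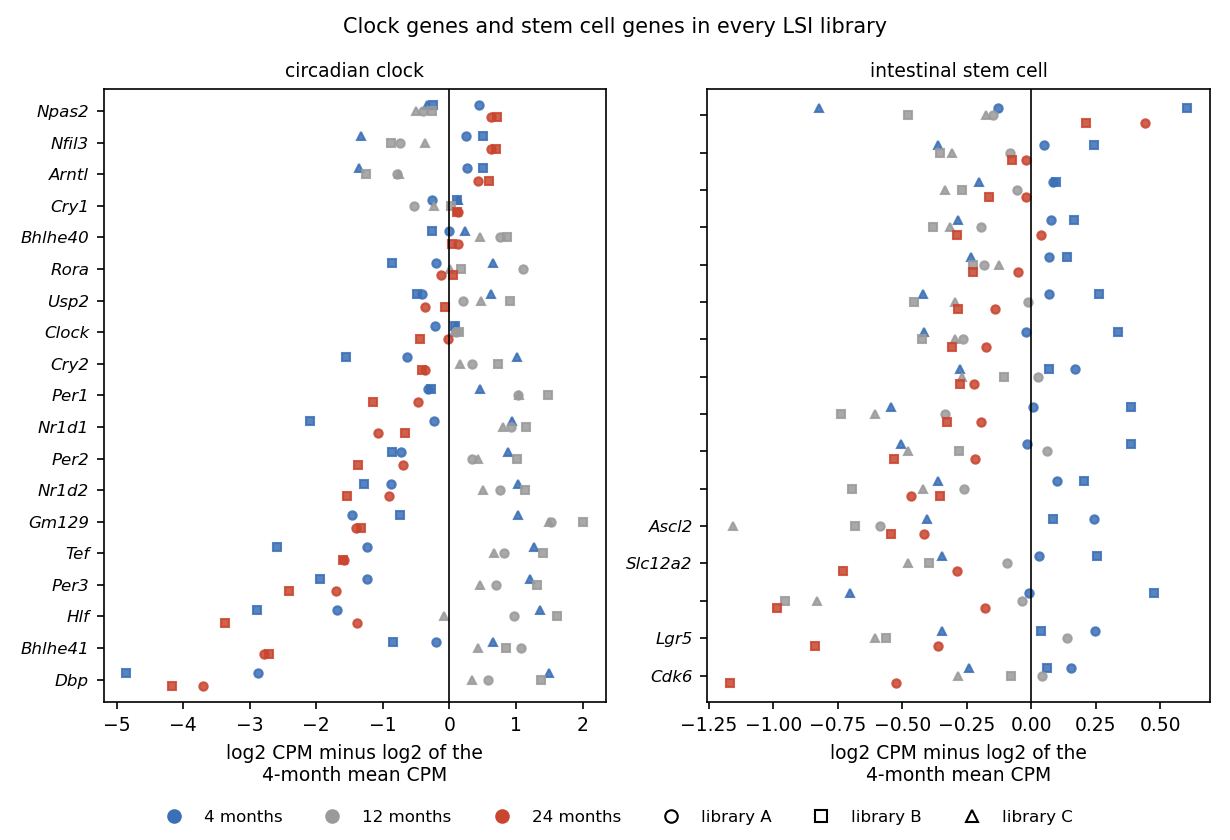
Log2 CPM minus the log2 of the 4-month mean CPM for 19 clock genes (left) and 16 stem cell genes (right) in every LSI library, each point a library and each row a gene, with the genes named in the text labelled. The 4-month C triangle lies right of the other 4-month points for Dbp, Tef, Per3 and Hlf and left of them for Arntl, and left of them in the stem cell genes.

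Genes of DNA methylation, which the study measured in the same tissue, gave no call. Of 13 measured, 3 did not overlap downward, where 10.3% of all genes did, and their median log2 fold change was -0.16. With the gene length offset 0 did not overlap downward, where 12.9% of all genes did. Without 4-month B the median was 0.03, with 3 genes upward and 6 downward, against 19.2% and 20.8% of all genes. Dnmt3a, a de novo methyltransferase, had 59.4, 62.2 and 55.7 CPM at 4 months and 48.4 and 41.0 CPM at 24 months (log2 fold change -0.40 ± 0.10, adjusted p = 0.19). Tet2, which oxidizes methylcytosine, had 26.2, 21.9 and 34.1 CPM and then 21.9 and 17.4 CPM (-0.48 ± 0.19, adjusted p = 0.377). Dnmt3b had 4.69, 7.29 and 4.45 CPM and then 4.20 and 4.35 CPM (adjusted p = 0.637). Dnmt1, the maintenance methyltransferase, overlapped at 109 to 197 CPM and 132 to 141 CPM, as did its partner Uhrf1, Tet1 and Tet3 (adjusted p of 0.569 or more).

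Imprinted genes are read from only the maternal or the paternal copy, which DNA methylation marks, and Polycomb proteins silence genes through histone marks. Of 18 imprinted genes measured, 5 did not overlap downward and 1 upward, against 10.3% and 8.06% of all genes. The median log2 fold change of the list was -0.21. Igf2r, a receptor that clears IGF2, had 126, 116 and 140 CPM and then 104 and 97.2 CPM (-0.34 ± 0.09, adjusted p = 0.219). Peg3 had 5.63, 5.41 and 7.75 CPM and then 3.21 and 0.929 CPM (-1.59 ± 0.49, adjusted p = 0.256). Of 14 Polycomb genes, 3 did not overlap downward, against 10.3% of all genes. Among the 3 was Cbx2 (19.9, 21.8 and 18.1 CPM, then 13.6 and 12.8 CPM, adjusted p = 0.268). Of 14 tuft cell genes, 4 did not overlap downward, against the same 10.3%. Dclk1, a kinase that marks tuft cells, had 22.3, 19.6 and 26.1 CPM and then 17.0 and 13.8 CPM (adjusted p = 0.356).

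**Figure D5:**
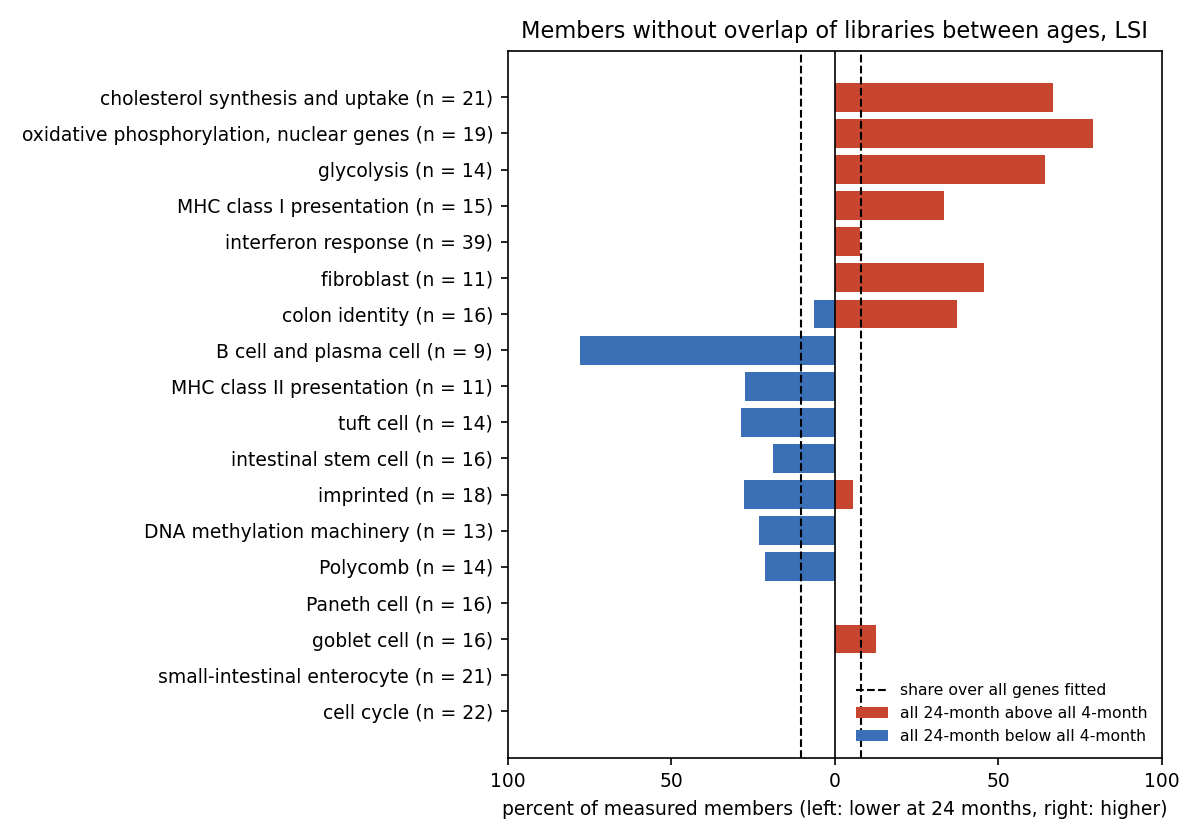
Percent of the measured members of 18 gene lists whose 24-month libraries all lay above (right) or below (left) all 4-month libraries, with the number measured in parentheses. Dashed lines mark the share over all genes fitted, 8.06% upward and 10.3% downward. The bars of cholesterol, oxidative phosphorylation and glycolysis reach furthest right, and the bar of B cells reaches furthest left.

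Markers of other cells were also read. Of 7 pancreatic acinar genes, 6 did not overlap upward, at low levels, where 8.06% of all genes did. Ctrb1, which codes for chymotrypsinogen, had 3, 0 and 0 counts at 4 months and 24 and 14 at 24 months. Pnlip, pancreatic lipase, had 0 and then 8 and 8 counts. The 12-month C library, with its insulin counts, had 24 and 16 counts of these genes, and 2 or fewer counts were found in 12-month A and B. The summed level of T cell markers was 70.6 to 430 CPM at 4 months and 276 and 303 CPM at 24 months. Of 51 gene lists read, 49 had no member past the test.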

How the data were processed

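The deposited files hold raw counts per gene for 24 libraries. Per the file headers, the authors made these counts with featureCounts 2.0.0 on an mm9 Ensembl annotation, ignoring strand and counting both mates of a pair separately. For trimming and alignment the paper names trimmomatic and STAR, but TopHat2, HTSeq and Cuffdiff appear in the processing notes of the submitters, and which made these files is not known. Here the counts were analysed in edgeR 4.0.16 (R 4.3.3) with TMM scaling, filterByExpr and quasi-likelihood tests over all 24 libraries, 1 term per section and age, with Benjamini-Hochberg adjustment. The fit had 15 residual degrees of freedom and a common biological coefficient of variation of 22.1%. Estimated from the 5 LSI libraries of 4 and 24 months alone, that coefficient was 26.9%. Replicates differed beyond counting noise (chi-square per degree of freedom 36.5 to 320.5), so none was counted as a repeat. Alternatives used DESeq2 1.42.0, other scalings, filters and subsets of libraries. The scripts were tested on simulated data. The genes named are those called, the 4 members of each list with the smallest p, and a fixed set (Lgr5, methylation genes, clock genes, and Ddr2, Rps4y2, Ccr2 and Cstf2t from earlier USI results). Any other gene in the text was picked with its values in view. The samples, members and lists were chosen with earlier results of these data known. Some list members enter the counts but are not reported here.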

Additional observations from a re-analysis of the deposited data

Results flagged for a closer look

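The age effect differed between LSI and the colon in 2 genes by the test of the difference itself (edgeR quasi-likelihood, Benjamini-Hochberg adjustment). For Gata4, a transcription factor of the upper gut, the log2 difference of LSI minus colon was -1.89 ± 0.29 (SE, adjusted p = 0.0328). In LSI it had 117, 95.2 and 120 CPM at 4 months and 83.9 and 127 CPM at 24 months, and in the colon its mean was 0.986 ± 0.176 CPM (SD, n = 3) in young libraries and 3.47 ± 0.381 CPM (SD, n = 2) in old ones. The call was lost without 24-month A (adjusted p = 0.106), 4-month A (0.0752) or 4-month C (0.0825). For Rps4y2 the difference was 6.96 ± 0.79 (SE, adjusted p = 0.00128). Its colon level was 7.16 ± 1.14 CPM (SD, n = 3) at 4 months and 0 counts in both libraries of 24 months, so that the size of this difference depends on the prior count and is no bound.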

How the results depend on the processing

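All 14 called genes kept their direction in every fit, but the number of calls moved. Against 14 calls, the likelihood ratio test of edgeR gave 82, DESeq2 135, a term for Y-linked expression 24, the 8 LSI libraries alone 3, the 5 libraries of 4 and 24 months alone 2, leaving out both B libraries 3, the insulin term (chosen after seeing the data) 3, and a log2 fold change over 1.5 as well 7. Leaving out 1 library gave 4 to 36 calls. For the difference between LSI and USI, with 0 calls, the likelihood ratio test gave 4 and DESeq2 4. For LSI and the colon, with 2 calls, they gave 36 and 30, the replicate block 8, and leaving out 1 library 1 to 2. The cause was not tested. Library letters did not pair the ages: deviations of same-lettered LSI libraries correlated at -0.002 (A) and -0.011 (B), and the fit with the replicate block gave 13 calls. Within an age, same-lettered libraries of 4 and 24 months correlated between sections with r over 0.1 in all 5 pairs. For 4-month A, however, a colon library of another letter correlated at 0.26, against 0.11 for colon A. At 24 months the 2 libraries of a group deviate by opposite amounts, so A and B gave the same value (0.31 with USI, 0.29 with the colon). With age and letter as a replicate block across sections, chosen after seeing the data, the difference from USI gave 1 call. That from the colon gave 11, among them Gata4 and Rps4y2. At 12 months the B and C letters of LSI and USI did not pair (r = -0.14 each). The length offset, which gave 11, was also chosen after seeing the data.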
